A study of Mus musculus with 6 samples.

Results

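The genes described here build the shape and the signalling apparatus of young neurons: 37 genes of the neuronal cytoskeleton, of synaptic vesicles and their release, of neuronal RNA binding and of axonal adhesion. They were chosen by name with earlier results of these data known, so counts of them are descriptions. Every non-control probe set annotated with exactly 1 gene symbol from that list of genes was taken. This gave 102 probe sets of the 45037 non-control probe sets on the array. All 37 genes, of 18193 named on the array, had a probe set, and 87 of the 102 probe sets passed a filter on dim signals, which asked for a value above the array's own median on at least 3 of the 6 arrays. The other 15 probe sets lay near the floor of the measurement, 4 of them for the synapsin gene Syn2 and 3 for the adhesion gene Ncam1.

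RNA came from the ventral forebrain of mouse embryos at E13.5 (days of embryonic development) that lacked both copies of Olig2 (Olig2-/-, here the knockout) or carried both (Olig2+/+, here the wild type). Olig2 is a basic helix-loop-helix transcription factor of ventral neural progenitors. Each array was hybridised with labelled RNA pooled from 3 brains, and the 6 arrays comprise replicates 1, 4 and 5 of the wild type and replicates 2, 4 and 5 of the knockout. The sample labels name the tissue ventral telencephalon. Of 6 genes of that region with a named probe set, 5 (Dlx1, Dlx2, Dlx5, Lhx6 and Gsx2) were above the median of all 6 arrays, while Nkx2-1, which marks the medial ganglionic eminence, was above it on 1 array. The log2 signal of Olig2 itself was 8.28 ± 0.12 with both copies and 7.59 ± 0.15 without (SD, n = 3). Which part of the gene its probe set covers was not looked at here, so this value does not check the deletion.

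When a forebrain progenitor leaves the cell cycle, its daughter switches on a shared programme. Tubulin and microtubule-associated proteins, doublecortin, stathmins and the collapsin response mediator proteins remodel microtubules in the migrating cell and its growth cone, and intermediate filament proteins fill the axon as it matures. Synaptic vesicle and SNARE proteins follow, first for membrane traffic in the growing axon and later for transmitter release, while the Elavl and Rbfox proteins set neuronal splicing and mRNA stability. The level of such genes in a tissue therefore depends on how many young neurons it holds and on how mature they are. In pooled tissue, fewer neurons and less RNA per neuron cannot be told apart.

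The promoters of 4 of the genes are shown because the results turn on them. Ina and Map1a had the lowest p-values among the members that were lower in the knockout, Map1b was the cytoskeletal member that differed most in the other direction, and Syn1 was the synaptic member of lowest p among those that were lower. Each sequence runs 5′ to 3′ on the gene's strand from 250 bases before the annotated start to 50 after it (RefSeq, GRCm38.p6). Ina lies on the plus strand at chr19:47014431-47014730, Map1a on the plus strand at chr2:121289352-121289651, Map1b on the minus strand at chr13:99516553-99516852, and Syn1 on the minus strand at chrX:20920869-20921168. Capitals mark CAGCTG and CAGATG, E-box sequences of the kind that basic helix-loop-helix factors bind, and TTCAGCACC, one end of the RE1 element bound by the neuronal gene repressor REST. All 3 were searched on both strands, and none of them overlap.
Ina: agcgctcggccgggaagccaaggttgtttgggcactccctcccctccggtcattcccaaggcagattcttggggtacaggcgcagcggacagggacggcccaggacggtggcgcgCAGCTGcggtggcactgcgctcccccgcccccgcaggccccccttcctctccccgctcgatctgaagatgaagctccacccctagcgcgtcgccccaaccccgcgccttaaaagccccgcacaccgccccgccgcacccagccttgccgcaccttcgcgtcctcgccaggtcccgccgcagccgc
Map1a: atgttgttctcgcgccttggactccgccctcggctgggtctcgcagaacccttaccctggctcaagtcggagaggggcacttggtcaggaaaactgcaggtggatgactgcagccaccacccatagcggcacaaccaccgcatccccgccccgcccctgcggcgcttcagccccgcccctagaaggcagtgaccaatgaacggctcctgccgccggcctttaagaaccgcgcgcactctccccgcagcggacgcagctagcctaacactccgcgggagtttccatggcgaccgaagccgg
Map1b: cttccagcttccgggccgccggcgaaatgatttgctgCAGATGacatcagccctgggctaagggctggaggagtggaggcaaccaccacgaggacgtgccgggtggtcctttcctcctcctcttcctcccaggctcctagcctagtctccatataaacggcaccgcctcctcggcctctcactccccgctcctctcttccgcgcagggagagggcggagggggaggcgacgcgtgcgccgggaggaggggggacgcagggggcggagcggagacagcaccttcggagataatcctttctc
Syn1: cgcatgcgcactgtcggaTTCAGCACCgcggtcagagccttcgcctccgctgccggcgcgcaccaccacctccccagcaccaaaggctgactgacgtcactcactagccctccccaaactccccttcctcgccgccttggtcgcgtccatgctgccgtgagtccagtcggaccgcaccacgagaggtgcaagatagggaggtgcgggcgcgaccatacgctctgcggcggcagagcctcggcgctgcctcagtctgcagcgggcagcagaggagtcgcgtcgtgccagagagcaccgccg
A CAGCTG began at position -135 from the start of Ina, a CAGATG at -213 from that of Map1b and a TTCAGCACC at -232 from that of Syn1, and none of these letters occur in the Map1a window. Promoters of 21 member genes were matched by symbol, some with several annotated starts, and a gene was counted if any of its promoters held the letters. These genes had 36 promoters, against 32851 for all 27025 genes, so members had more windows per gene in which to match. Their median GC content was 58%, against 52.7% over all promoters. The shares below were not adjusted for either. CAGCTG occurred at 6 of the 21 genes (28.6%, against 18.3% of all 27025 genes with a promoter), in Ina, Elavl2, Elavl3, Elavl4, Stx1a and Syt1. CAGATG occurred at 5 (23.8% against 19.2%), in Map1b, Elavl4, L1cam, Stmn3 and Syn2. TTCAGCACC occurred at Syn1 alone, against 0.433% of all genes. Among the genes with CAGCTG the log2 difference between genotypes was -0.60 for Ina and 0.00 for Syt1. The matches describe the letters in these windows and show no binding.

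Wild-type replicate 1 stood apart from the other arrays in these genes. Each gene was read at its kept probe set of highest mean, called its brightest below, and the log2 values of the genes of a class were averaged on each array. For the 18 cytoskeletal genes these means were 11.08, 10.82 and 10.85 on wild-type replicates 1, 4 and 5 and 10.80, 10.81 and 10.80 on knockout replicates 2, 4 and 5, an order of arrays kept in every list of 6 values below. Wild-type replicate 1 thus lay 0.25 above the mean of the other wild-type arrays, which themselves lay within 0.1 of every knockout array. For the 10 synaptic genes the means were 8.32, 7.86 and 7.90 and then 7.86, 7.94 and 7.84, and wild-type replicate 1 lay 0.44 above the other wild-type arrays. It was the highest wild-type array for 27 of the 37 genes (73.0%), against 42.5% of all 10630 genes with a kept probe set.

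**Figure D1:**
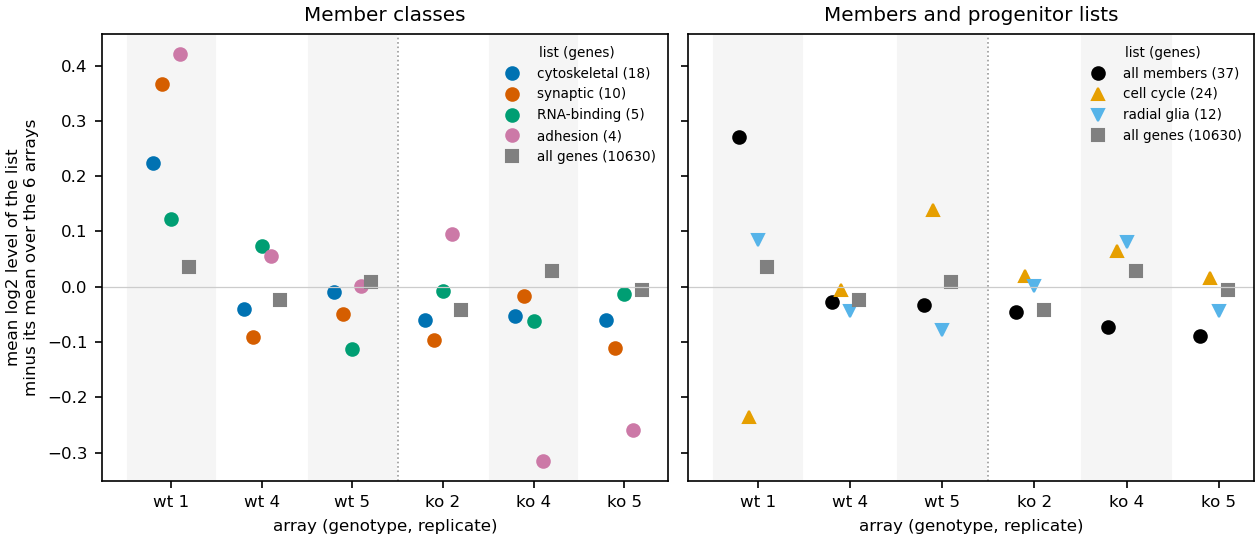
Mean log2 level of each list on each array, taken relative to the list's own mean over the 6 arrays; the x axis gives genotype (wt, ko) and replicate number. All 4 member classes are highest on wild-type replicate 1 (left), where the cell cycle list is at its lowest (right), and the cytoskeletal means of the 3 knockout arrays are nearly equal.

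Lists of progenitor genes were read beside them. Of 24 cell cycle genes measured of 25 listed, 19 were lowest among the wild-type arrays on wild-type replicate 1, against 3947 of all 10630 genes. The list mean there lay -0.30 from the other wild-type arrays. On wild-type replicate 5, 23 of the cell cycle genes were highest, against 34.0% of all genes. The summed log2 level of that list ran from 215.6 to 224.6 over the wild-type arrays and from 221.7 to 222.9 over the knockout arrays. In the knockout 16 of the 24 were higher and 8 lower (median log2 difference 0.09), where 50.6% of all genes were lower. Without wild-type replicate 1, 6 were higher and 18 lower (median -0.03), where 48.6% of all genes were lower. The 12 radial glia genes, among them Sox2, Nes and Vim, had sums from 109.4 to 111.4 over the wild-type and 109.8 to 111.4 over the knockout arrays. Of these genes 6 were lower and 6 higher in the knockout, both with all arrays and without wild-type replicate 1. Knockout replicate 2 stood apart in meningeal and mesenchymal genes, 2.47 above the other knockout arrays over the 4 measured of 12 listed (sums of 20.1 to 22.9 over the wild-type arrays, 19.8 to 29.8 over the knockout arrays). Wild-type replicate 1 was the highest wild-type array for all 4, and 0.63 above the other wild-type arrays. The defining collagens Col1a1 and Col1a2 and the meningeal genes Foxc1, Dcn and Lum were below the filter. For the 5 of 8 blood genes measured the sums were 40.0 to 43.7 and 41.4 to 44.0, for 8 of 10 endothelial and pericyte genes 42.9 to 44.3 and 43.4 to 44.7, and for 4 of 8 microglial genes 16.3 to 17.2 and 17.0 to 17.5. Wild-type replicate 1 was the lowest wild-type array for 4 of the 5 blood genes, and their mean there lay -0.53 from the other wild-type arrays. At an unadjusted limma p below 0.05, Mcm4 (1 of 24 cell cycle genes, log2 difference 0.40, SE 0.11) was higher in the knockout. So were Hes1 (1 of 12 radial glia genes, 0.40, SE 0.12) and Pdgfrb (1 of 8 endothelial and pericyte genes, 0.41, SE 0.09). The background was 3.99% of all genes, and these lists had no lower gene at that threshold. Each had groups without overlap and an adjusted p of 0.511 in limma. The part of all these lists in the results below was not tested.

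The comparison of the genotypes asked which members differ when Olig2 is absent. No member passed, and no probe set of the 22565 tested did. The smallest adjusted p was 0.511 (limma, with Benjamini-Hochberg adjustment over all 22565 probe sets, two-sided), and 997 probe sets were lower and 1124 higher at an unadjusted p below 0.05 (0% passed once adjusted). With 3 arrays against 3, an exact permutation test of a single gene cannot go below 0.1. Of the 37 member genes, 27 were lower and 10 higher in the knockout at their brightest probe set, where 50.6% of all genes were lower. Their median log2 difference, knockout minus wild type, was -0.08, against 0.00 over all genes. At an unadjusted limma p below 0.05, 2 members were lower (Ina and Map1a, 5.41%, against a background of 3.91% of all genes) and 2 higher (Map1b and Syt4, 5.41% against 3.99%). With all arrays the shares called are thus close to the background in both directions. Leaving out single arrays moved the 2 lower calls. Map1a alone was left without knockout replicate 4 (2.7%, background 2.59%) or knockout replicate 5 (2.7%, background 1.99%). There were 3 without knockout replicate 2 (8.11%, background 2.9%). There were 4 without wild-type replicate 4 (10.8%, background 8.1%) or wild-type replicate 5 (10.8%, background 2.76%). Of the 2 higher calls, Syt4 stayed at that threshold whichever array was left out. Map1b stayed at it only when the array left out was a wild-type one. Over all 87 kept member probe sets, 54 were lower (background 49.3%), 5 of them at that threshold (5.75%, background 4.42%), and 5 were higher at it (5.75%, background 4.98%). The groups did not overlap for 8 lower (9.20%, background 7.25%) and 5 higher probe sets (background 8.96%).

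Split by function, the cytoskeletal genes had 13 of 18 lower with a median of -0.10, and the synaptic genes 7 of 10 lower with a median of -0.07. Among the 5 RNA-binding genes 4 were lower (median -0.08), and among the 4 adhesion genes 3 (median -0.28). The groups did not overlap for 5 members that were lower, Ina, Mapt, Map1a, Crmp1 and Syn1 (5 of 37, against 7.96% of all genes), and for 2 that were higher, Map1b and Syt4 (5.41%, against 8.45%). Both lower calls and 4 of the 5 lower genes without overlap were cytoskeletal. The difference between the classes was not tested.

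Without wild-type replicate 1 the shift shrank in both main classes. The median was -0.06 for cytoskeletal genes (11 of 18 lower), -0.03 for synaptic genes (6 of 10 lower), -0.04 for RNA-binding genes and -0.16 for adhesion genes. Over all 37 it was -0.05, with 23 lower and 14 higher, where 48.6% of all genes were lower. The mean difference, which large single changes weigh on, went from -0.12 to -0.03 for cytoskeletal and from -0.15 to 0.00 for synaptic genes. The difference of 31 of the 37 genes became more positive when that array was left out (83.8%, against 52.0% of all genes), among them 9 of 10 synaptic and 14 of 18 cytoskeletal genes. Ina, Map1a and Mapt had an unadjusted limma p below 0.05 in the lower direction in that comparison (8.11% of members, background 2.7%), and Map1b and Syt4 in the higher (5.41%, background 2.82%). All 5 had an adjusted limma p of 0.748 there. Groups without overlap are easier to reach with fewer arrays. Without wild-type replicate 1 they were found for 1124 lower and 1276 higher of all 10630 genes, against 846 and 898 with all arrays. Among the 37 members they were found for 5 lower and 3 higher genes.

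**Figure D2:**
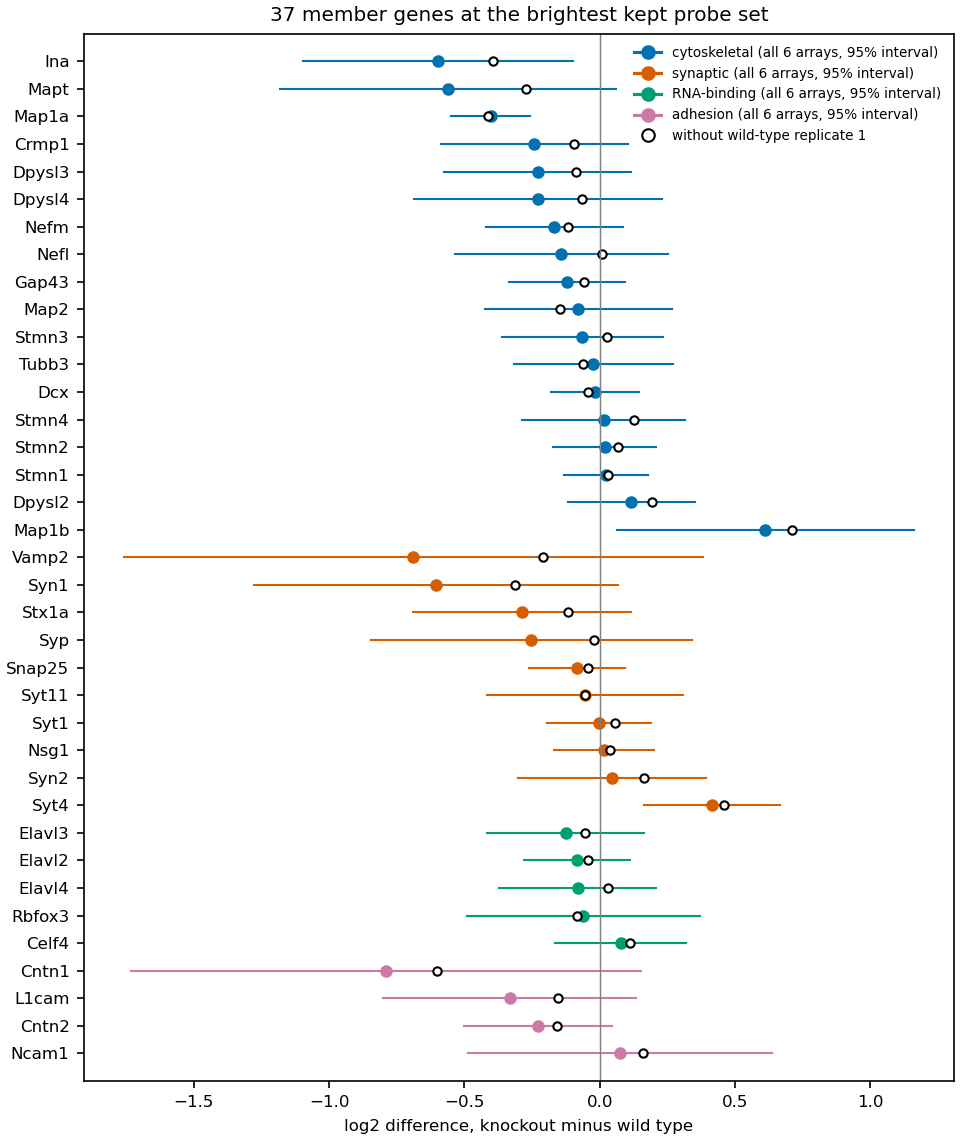
Log2 difference (knockout minus wild type) of each of the 37 genes at its brightest kept probe set; filled points with lines are all 6 arrays with limma's 95% interval, and open points leave out wild-type replicate 1. Most open points lie to the right of their filled point, among them those of Map1b (0.61 to 0.71) and Syt4 (0.42 to 0.46), while that of Map1a lies slightly to the left (-0.40 to -0.41).

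Among the intermediate filament genes, Ina, which encodes alpha-internexin, the filament protein of newly formed axons, was lower at every probe set. Its brightest probe set read 11.90, 11.23 and 11.37 with Olig2 and 11.07, 10.69 and 10.95 without it. The groups did not overlap, and the highest wild-type value was again that of replicate 1. The log2 difference was -0.60 (SE 0.20, 95% interval -1.10 to -0.10), a 1.51-fold lower level, with adjusted p = 0.511 in limma. The other probe sets differed by -0.56 and -0.38, both also without overlap. Without wild-type replicate 1 the 3 differences were -0.40, -0.36 and -0.22. The unadjusted limma p of the brightest probe set was above 0.05 without knockout replicate 4 or without knockout replicate 5. The neurofilament subunits showed smaller differences. Nefm, the medium subunit, read 9.62, 9.49 and 9.47 and then 9.18, 9.43 and 9.47, so that the groups overlapped at one array of each genotype, with a difference of -0.17 (SE 0.10). Nefl, the light subunit, differed by -0.14, and by 0.01 without wild-type replicate 1.

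Map1a and Map1b, which encode the heavy microtubule-associated proteins of mature and of growing neurites, went opposite ways at their brightest probe sets. Map1a read 6.17, 6.19 and 6.21 with Olig2 and 5.78, 5.80 and 5.78 without it. Within each genotype the arrays lay within 0.05 of each other. The difference of -0.40 (SE 0.06, 95% interval -0.55 to -0.26) had the lowest unadjusted p among the members (adjusted p = 0.511 in limma), and left-out arrays moved it only between -0.41 and -0.39. Its second probe set did not repeat it: it read 5.60, 4.96 and 5.09 and then 5.24, 5.25 and 5.24, a difference of 0.02. There the 3 knockout arrays were again nearly equal and wild-type replicate 1 was high. Without that array the second probe set was 0.22 higher in the knockout, so the probe sets then differed in opposite directions. The groups did not overlap there, which fewer arrays make easier.

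Map1b read 9.76, 9.07 and 9.87 with Olig2 and 10.30, 10.21 and 10.03 without it, a difference of 0.61 (SE 0.22, 95% interval 0.06 to 1.16, adjusted p = 0.511 in limma). The low value of wild-type replicate 4 set part of its size, since the difference was 0.37 without that array. Its unadjusted limma p was above 0.05 when any one of the knockout arrays was left out. The other Map1b probe sets were scattered. One read 7.53, 7.87 and 6.83 and then 7.92, 5.71 and 5.87, a difference of -0.91 (SE 0.64), in which knockout replicate 2 lay with the wild type. The other read 4.01, 6.60 and 4.14 and then 6.74, 6.24 and 5.79, a difference of 1.34 (SE 0.74), in which wild-type replicate 4 lay with the knockout.

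Mapt encodes tau, the microtubule-associated protein of axons. Its brightest probe set read 12.91, 12.096 and 11.998 with Olig2 and 11.89, 11.76 and 11.67 without it, with no overlap. The difference was -0.56 (SE 0.25, adjusted p = 0.511 in limma), and -0.27 without wild-type replicate 1. The other 3 probe sets differed by -0.25, -0.11 and 0.02 with overlapping groups. Without that array they differed by 0.05, -0.03 and 0.22, the last with no overlap and in the direction opposite to the brightest. Map2, the dendritic counterpart, differed by -0.08 at its brightest probe set and by 0.05 to 0.38 at the others. Wild-type replicate 1 was the lowest of all 6 arrays at both Map2 probe sets of largest difference, 0.38 and 0.30, which were 0.15 and 0.14 without it. The neuronal tubulin Tubb3 differed by -0.02 (95% interval -0.32 to 0.27) and doublecortin, Dcx, by -0.02 (-0.18 to 0.14), although a dimmer Dcx probe set differed by 0.62. Wild-type replicate 1 was the lowest of all 6 arrays there too, and the difference was 0.41 without it, with overlapping groups.

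The stathmins, small proteins that bind and sequester tubulin, showed the smallest differences of the cytoskeletal families. Stmn1 read 13.32, 13.35 and 13.25 and then 13.34, 13.34 and 13.32, a difference of 0.02 with a 95% interval of -0.13 to 0.18. Stmn2 (0.02, -0.17 to 0.21), Stmn3 (-0.06, -0.36 to 0.23) and Stmn4 (0.01, -0.29 to 0.32) had intervals on both sides of 0 too. These intervals bound the change and do not show equal levels.

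Of the collapsin response mediator genes, which link semaphorin signals to tubulin, Crmp1 read 12.02, 11.51 and 11.64 with Olig2 and 11.48, 11.51 and 11.45 without it. The groups were apart by less than 0.001, between replicate 4 of each genotype, which is no separation in practice. The difference was -0.24 (SE 0.14) and -0.09 without wild-type replicate 1. Dpysl3 read 12.59, 12.25 and 12.09 and then 12.16, 12.03 and 12.05 (-0.23, SE 0.14), and its other probe sets differed by -0.69 and 0.54. Without wild-type replicate 1 these 3 differences were -0.09, -0.39 and 0.28. Dpysl4 differed by -0.23, and by -0.06 without that array. Dpysl2 differed by 0.12, and by 0.19 without it, where the groups no longer overlapped. Gap43, a growth cone membrane protein that acts on actin, differed by -0.12 (95% interval -0.33 to 0.09), and by -0.06 without wild-type replicate 1.

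**Figure D3:**
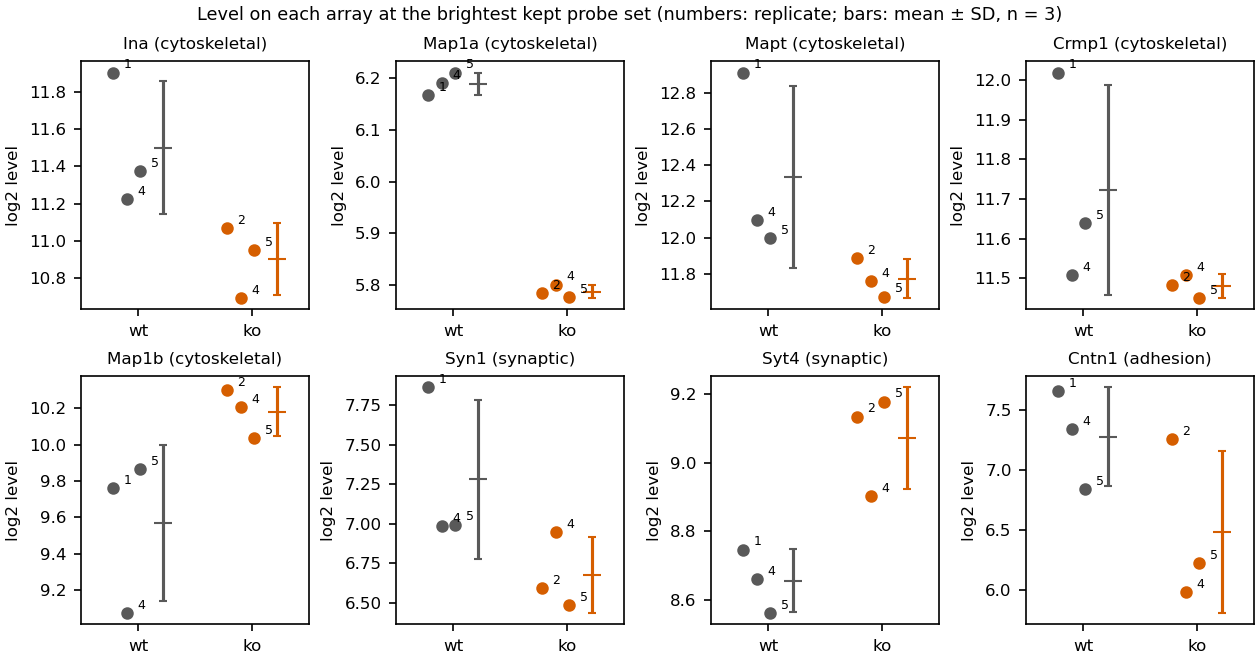
Log2 level on each array for 8 members at the brightest kept probe set; points are arrays numbered by replicate, bars are the mean ± SD of 3 arrays, and each panel has its own y axis. Wild-type replicate 1 is the highest point for Ina, Mapt, Crmp1, Syn1 and Cntn1, whereas for Map1a the 3 wild-type arrays lie together at 6.17 to 6.21.

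Among synaptic genes, the one with the lowest p was higher in the knockout. Syt4, a synaptotagmin of neuropeptide vesicles and dendrites, read 8.75, 8.66 and 8.56 with Olig2 and 9.13, 8.90 and 9.18 without it. The genotypes did not overlap, with knockout replicate 4 nearest to the wild type. The difference was 0.42 (SE 0.10, 95% interval 0.16 to 0.67), a 1.33-fold higher level, with adjusted p = 0.511 in limma. Its second probe set read 8.05, 8.02 and 7.88 and then 8.58, 8.55 and 8.32, a difference of 0.50 (SE 0.10) and a 95% interval of 0.25 to 0.75. Leaving out single arrays kept the first between 0.36 and 0.50 and the second between 0.45 and 0.58. Wild-type replicate 1 did not stand out at either.

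Syn1, which encodes synapsin I, the phosphoprotein that tethers synaptic vesicles, was the other synaptic gene whose groups did not overlap. It read 7.86, 6.99 and 6.99 with Olig2 and 6.59, 6.95 and 6.49 without it. The difference was -0.60 (SE 0.27, adjusted p = 0.511 in limma), and -0.31 without wild-type replicate 1, where knockout replicate 4 lay 0.04 below the lower of the remaining wild-type arrays. Syn2 differed by 0.04.

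The SNARE genes, whose products drive vesicle fusion, were all lower, and wild-type replicate 1 was the highest array for each. Vamp2, the vesicle SNARE, read 8.27, 6.85 and 6.83 and then 6.84, 6.83 and 6.22. A single array thus stood above all the others, and the difference of -0.69 (SE 0.43) became -0.21 without it. A second Vamp2 probe set differed by 0.05. Stx1a, a SNARE of the target membrane, read 7.92, 7.35 and 7.45 and then 7.24, 7.21 and 7.41, a difference of -0.29 (SE 0.16) that was -0.12 without wild-type replicate 1. Snap25, its partner, differed by -0.08 (95% interval -0.26 to 0.09). The vesicle membrane protein Syp differed by -0.25, and by -0.02 without that array.

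The remaining vesicle genes differed little at their brightest probe sets. Syt1, the calcium sensor of release, differed by 0.00 (95% interval -0.20 to 0.19), the endosomal neuronal protein Nsg1 by 0.02 and Syt11 by -0.05. The 5 Syt11 probe sets ran from -0.55 to 0.34. The one at 0.34 had every knockout array above the wild type (adjusted p = 0.511 in limma), and the one at -0.55 was highest on wild-type replicate 1.

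Of the RNA-binding genes, Elavl2 and Elavl3, neuronal proteins that stabilise mRNAs, had the lowest p at their brightest probe sets. Elavl2 read 11.88, 11.77 and 11.73 and then 11.78, 11.61 and 11.73, a difference of -0.09 (SE 0.08), and its other probe sets differed by -0.01, 0.29 and 0.65. At the last of these every knockout array lay above the wild type (adjusted p = 0.511 in limma), and the difference was 0.66 without wild-type replicate 1. The mean of its probe sets was 0.21 higher in the knockout, so its direction rests on the probe set read. Elavl3 read 9.51, 9.34 and 9.25 and then 9.38, 9.29 and 9.05 (-0.13, SE 0.12), and a dimmer probe set without overlap differed by -0.47. Without wild-type replicate 1 these were -0.05 and -0.27. Elavl4 (-0.08), Rbfox3, the gene of the NeuN antigen (-0.06), and Celf4 (0.08) had intervals on both sides of 0.

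The adhesion genes had the largest median difference of the 4 classes, on few genes. Cntn1, a contactin of axons, read 7.66, 7.34 and 6.84 with Olig2 and 7.26, 5.98 and 6.23 without it. Knockout replicate 2 lay within the wild-type range and the other knockout arrays below it. The difference was -0.79 (SE 0.38, adjusted p = 0.513 in limma), -0.60 without wild-type replicate 1 and -1.18 without knockout replicate 2. Its second probe set differed by -0.24, and by -0.02 without wild-type replicate 1. Cntn2, or TAG-1, an adhesion molecule of early axons, read 6.21, 5.85 and 6.17 and then 5.84, 5.88 and 5.83 (-0.23, SE 0.11), with wild-type replicate 4 among the knockout values. All 3 of its kept probe sets were lower, from -0.47 to -0.23. L1cam, which bundles axons, differed by -0.33 and -0.42 at its 2 probe sets, and by -0.15 and -0.21 without wild-type replicate 1. Ncam1 differed by 0.08 at its brightest and from -0.43 to 0.07 at the others.

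Probe sets of the same gene often differed in sign. Of 27 members with several kept probe sets, 9 had all of them on 1 side of 0 (7 lower, 2 higher) and 18 had both signs. Ina, Cntn2 and Syt4 were among the 9, and Map1a, Map1b and Mapt among the 18. Signs can also differ where the differences are close to 0, as for Stmn2 (0.02 and -0.02). The share with both signs over all genes was not computed, so these counts show nothing particular to the members. Where the probe sets lie within the transcripts was not analysed here.

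**Figure D4:**
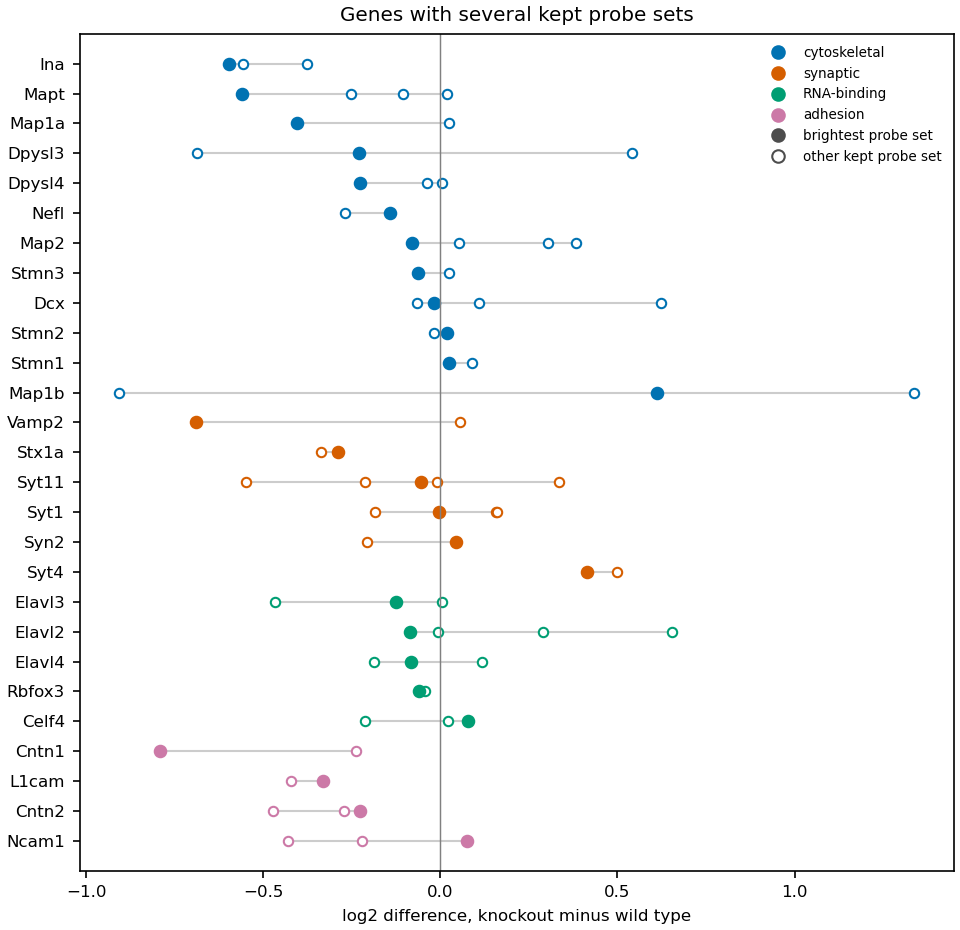
Log2 difference (knockout minus wild type) at every kept probe set of the 27 genes with several; filled points are the brightest probe set of a gene, open points the others, and grey lines join the probe sets of a gene. The span is widest for Map1b, from -0.91 to 1.34, while the 3 points of Ina all lie at -0.38 or below and both points of Syt4 at 0.42 or above.

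Other genes of the same processes were read from fixed lists, which like the members were drawn up with earlier results known. Of 20 further cytoskeletal genes, among them other tubulins, kinesins and doublecortin-like kinases, 18 were measured, and 14 were lower (median -0.13, and -0.07 without wild-type replicate 1). At an unadjusted limma p below 0.05 there was 1, lower (5.56%, background 3.91%): Map7d1, a microtubule-associated protein, at -0.38 (SE 0.13). Of 28 further synaptic genes 21 were measured and 14 were lower, with a median of -0.12 that turned to 0.02 without wild-type replicate 1. Syt13 was the only one lower at that threshold (4.76%, background 3.91%), with a difference of -1.07 (SE 0.36). It read 7.16, 7.33 and 6.37 in wild-type arrays and 5.25, 6.17 and 6.22 in knockout arrays. Sncg was the only one higher at that threshold (background 3.99%), with overlapping groups. Of 9 further RNA-binding genes 7 were lower (median -0.29, and -0.17 without wild-type replicate 1). Celf3 was the only one lower at that threshold (1 of 9, background 3.91%), at -0.46 (SE 0.13). Of 13 further adhesion genes measured of 14, 5 were lower and 8 higher (median 0.04). Cntn3 was the only one higher at that threshold (1 of 13, background 3.99%), by 0.26 at a dim probe set. Map7d1, Syt13, Sncg, Celf3 and Cntn3 all had an adjusted p of 0.511 in limma.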

How the data were processed

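The deposited values are log2 expression per probe set. Per the labels and the design text, the authors read the array images with GCOS and MAS 5.0 and used GCRMA for quantile normalization, summary and the log2 step; tool versions were not stated. GCRMA leaves a floor that compresses differences of dim genes, and quantile normalization hides a change in total RNA. The platform annotation gave 1 gene symbol for 34945 of 45037 non-control probe sets, several for 932 and none for 9160.

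Genotypes were compared with limma 3.58.1 in R 4.3.3 (lmFit, eBayes) over 22565 kept probe sets, with a threshold of 0.05 after Benjamini-Hochberg adjustment, and the step was tested on simulated data. Genes were read at the kept probe set of highest mean. Members, gene lists and the split into classes were chosen with earlier results of these data known, so their counts are descriptions. The 6 genes used to check the tissue were picked after seeing the files. The rule for named genes gave values on every array for the 7 cytoskeletal, 4 synaptic, 2 RNA-binding and 2 adhesion members of lowest p and any other without overlap, and named further genes at p below 0.05 without overlap. Sncg and members' other probe sets were named after their values were seen. Nothing says the pools came from separate litters, so p-values measure the spread between these arrays, whose number limits precision. Alternatives were other filters, normalizations and variance models, averaged probe sets per gene, the replicate number as a block, and each array left out.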

Additional observations from a re-analysis of the deposited data

How the results depend on the processing

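The counts and medians for the members, and the 15 members with values on every array, were recomputed under 14 alternatives. Of 210 values for those 15 genes, 209 kept their direction and none reached an adjusted p of 0.05 in limma. The exception was Elavl2, which was 0.21 higher with the mean of its probe sets (adjusted p = 0.533 in limma). The other filters and the other variance model left the differences of these genes unchanged, because the same probe set was read. Their directions could not have turned there, so those values do not test the direction. No probe set passed the adjusted threshold under the 13 alternatives tested per probe set, nor any gene with averaged probe sets, with 997 lower and 1124 higher at unadjusted p below 0.05 with all arrays. The 5 member probe sets and 2 member genes lower at that threshold were 2 (1.96%, against 1.95% of all probe sets) and 1 (2.7%, against 2.2% of all genes) with no filter. They were 10 (11.5% against 5.18%) and 4 (10.8% against 2.47%) with the replicate block, and from 1 to 8 and from 1 to 4 with single arrays left out. The numbers 1 and 2 occur in one genotype each, so the blocked differences rest on arrays 4 and 5 alone, and the block cannot be told apart from leaving out wild-type replicate 1 and knockout replicate 2. The median of the synaptic genes was then 0.03, against -0.07. Nothing in the labels ties equal numbers to a common litter or day, so the numbers were not taken as pairs. Deviations of same-numbered arrays from their genotype means correlated at -0.29 for number 4 and 0.32 for number 5 across probe sets. Between differently numbered arrays of the 2 genotypes the correlations ran from -0.36 to 0.38, so these values cannot decide on pairing. With single arrays left out, the median ran from -0.14 to -0.06 for cytoskeletal genes and from -0.13 to -0.03 for synaptic genes. With averaged probe sets, 2 member genes were lower at an unadjusted limma p below 0.05 (5.41%, against 4.27% of all genes). These were Ina and Cntn2. Among the 15 members with values on every array, Syt4 (0.46) and Elavl2 (0.21) were higher at that threshold. Higher calls among the other members were not counted there. Map1a then differed by -0.19, with an unadjusted limma p of 0.09. Signals near the floor limit what the dimmest members can show.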
